A study of Rattus norvegicus with 6 samples.

Results

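Asns, Sesn2, Chac1, Trib3, Atf3, Atf4, Atf5, Ddit3, Ddit4 and Ppp1r15a form the stress programme of the transcription factor ATF4, and they were followed through 6 poly-A RNA sequencing libraries of rat retina. They were selected by symbol from the deposited expression table, where all 10 were found, each as a single entry, among 34170 genes. The list was drawn up with the diabetic and control values of these libraries already known, so the differences of the 10 genes are given as a description with no test. The animals were male Sprague-Dawley rats, an outbred stock, with labelled weights between 100.4 and 110.5 g. The 3 control rats, labelled WT, received citrate vehicle by intraperitoneal injection on 5 days in a row. The 3 diabetic rats received streptozotocin, which kills the insulin-producing beta cells, at 60 mg/kg after a 12 h fast on 5 days, with diabetes defined by a fasting blood glucose above 16.7 mmol/L at 1 week after the last dose. The labels name no engineered allele in either group, and neither the blood glucose of each rat nor the time of retina collection is given in the sources used here. Each library comes from a separately weighed rat.

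ATF4 is the effector of the integrated stress response. Kinases that sense amino acid shortage, misfolded protein in the endoplasmic reticulum, haem deficiency or viral RNA phosphorylate the initiation factor eIF2. This lowers protein synthesis in general while the messenger RNA of ATF4 is translated more, so the programme can run without more ATF4 messenger RNA. ATF4 pairs with other basic leucine zipper proteins, above all of the C/EBP family, and switches on amino acid synthesis, uptake and tRNA charging, brakes on growth signalling, and regulators such as CHOP (Ddit3), ATF3 and TRIB3 that shape or end the response.

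The promoters of the genes are shown first, because the rule that chose the genes read no sequence. The genes were listed as the ATF4 programme, so their motif counts beside those of all promoters are a description. RefSeq promoters on build GRCr8 were matched by symbol for 9 of the 10 genes, all but Atf3, and the 250 bases before each annotated start were searched on both strands. The core of the C/EBP-ATF composite element, TGATGNAA, was found in 2 of the 9, Chac1 and Trib3, and in 3.40% of 33469 promoters of that length. The cAMP response element TGACGTCA, which reads the same on both strands, was found in 1 of the 9, Ppp1r15a, and in 1.59% of all promoters. The full endoplasmic reticulum stress element was found in 0 of the 9 and in 0.0657% of all. Asns, Chac1, Trib3 and Ppp1r15a are printed 5′ to 3′ on the strand of the gene, with matches in capitals. They lie at chr4:36769416-36769665 (minus strand), chr3:126795881-126796130 (plus), chr3:161275534-161275783 (minus) and chr1:105139597-105139846 (minus).
Asns: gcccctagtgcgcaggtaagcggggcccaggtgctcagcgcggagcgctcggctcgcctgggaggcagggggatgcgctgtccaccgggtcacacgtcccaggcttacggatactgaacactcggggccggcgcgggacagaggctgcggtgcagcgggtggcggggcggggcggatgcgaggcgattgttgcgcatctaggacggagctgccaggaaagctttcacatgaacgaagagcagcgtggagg
Chac1: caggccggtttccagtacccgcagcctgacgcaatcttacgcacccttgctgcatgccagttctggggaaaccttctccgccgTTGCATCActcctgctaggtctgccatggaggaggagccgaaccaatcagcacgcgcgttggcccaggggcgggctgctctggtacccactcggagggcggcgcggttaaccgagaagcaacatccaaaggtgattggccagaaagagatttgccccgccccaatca
Trib3: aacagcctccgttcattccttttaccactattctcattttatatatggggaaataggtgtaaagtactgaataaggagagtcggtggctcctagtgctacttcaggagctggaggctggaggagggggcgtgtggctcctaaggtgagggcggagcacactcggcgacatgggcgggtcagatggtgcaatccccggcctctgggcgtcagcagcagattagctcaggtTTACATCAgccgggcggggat
Ppp1r15a: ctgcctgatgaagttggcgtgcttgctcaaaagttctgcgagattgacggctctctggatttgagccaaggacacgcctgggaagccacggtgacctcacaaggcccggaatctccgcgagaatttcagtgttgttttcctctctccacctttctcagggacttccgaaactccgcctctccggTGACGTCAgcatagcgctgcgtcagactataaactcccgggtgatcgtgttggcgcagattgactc
The match lies 167 to 160 bases before the start in Chac1 and 21 to 14 bases before it in Trib3, both on the opposite strand, and 66 to 59 bases before it in Ppp1r15a. Asns is shown as the promoter of the gene with the largest difference and holds none of the 3 motifs in this window, which says nothing about sites outside it. GC content was between 55.2% and 68.8% in the 9 promoters, with a median of 61.2% against 51.2% over all promoters.

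Expression is given as FPKM, fragments per kilobase of gene length scaled to the total of the library, which allows levels to be compared between genes. Rebuilt whole fragments summed to between 12417686 and 19115426 per library. Markers of rods, the main cell type of rat retina, were abundant in the 6 libraries. The summed level of 5 rod markers was 13104 to 13372 FPKM in control and 9739 to 11456 FPKM in diabetic libraries, and that of the 5 cone markers was 579.2 to 645.6 and 497.8 to 563.0 FPKM. Both sums were lower in diabetic retina without overlap, but the cone genes differed in direction. Opn1sw, the short-wave cone opsin, was higher in every diabetic library (20.0 to 34.5 against 14.0 to 17.3 FPKM), Pde6h was lower in every one, and Opn1mw, Arr3 and Gnat2 overlapped. These cone genes are named after their values were seen. Also lower without overlap was the sum of 4 pericyte and smooth muscle markers (10.3 to 15.6 against 6.79 to 7.86 FPKM). None of these rod, cone and pericyte markers was listed at 0 in any library. Sums of the other 12 marker lists overlapped between the groups, including those of Muller glia, microglia and pigment epithelium, and the lens sum was 227.2 FPKM in control 3 against 6.12 to 27.4 FPKM elsewhere. The cornea sum was 10.9 FPKM in control 2 and 13.6 FPKM in diabetic 1 against 1.12 to 4.15 FPKM elsewhere. In such bulk samples fewer cells of a type and less RNA per cell cannot be told apart, and the part of cell composition in the results that follow was not tested.

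Levels of the 10 genes spanned more than 2 orders of magnitude, with Atf4 highest and Atf3 lowest. Diabetic retina had higher means of 7 genes and lower means of 3. The groups overlapped for Atf4 and Ddit3. All 3 diabetic libraries lay above all 3 control libraries for Asns, Sesn2, Chac1, Trib3, Atf3 and Atf5, and below them for Ddit4 and Ppp1r15a. Those 8 of 10 genes stand beside 26.2% of the 16363 genes tested whose groups did not overlap (12.7% higher and 13.6% lower in diabetic retina), and since the genes were chosen with these values known, nothing is read from the difference. The median log2 difference of the 10 genes was 0.83, against 0.00 over all genes tested. In limma's test across all genes 0 of the 10 passed a Benjamini-Hochberg adjusted p of 0.05, as did 0% of all genes, while 3255 genes, or 19.9%, had an unadjusted p below 0.05. With voom on the rebuilt fragments 2 genes passed, and 1 of them was Asns, a gene chosen with these values known. In that fit 2210 genes were higher and 1203 lower at an unadjusted p below 0.05.

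**Figure D1:**
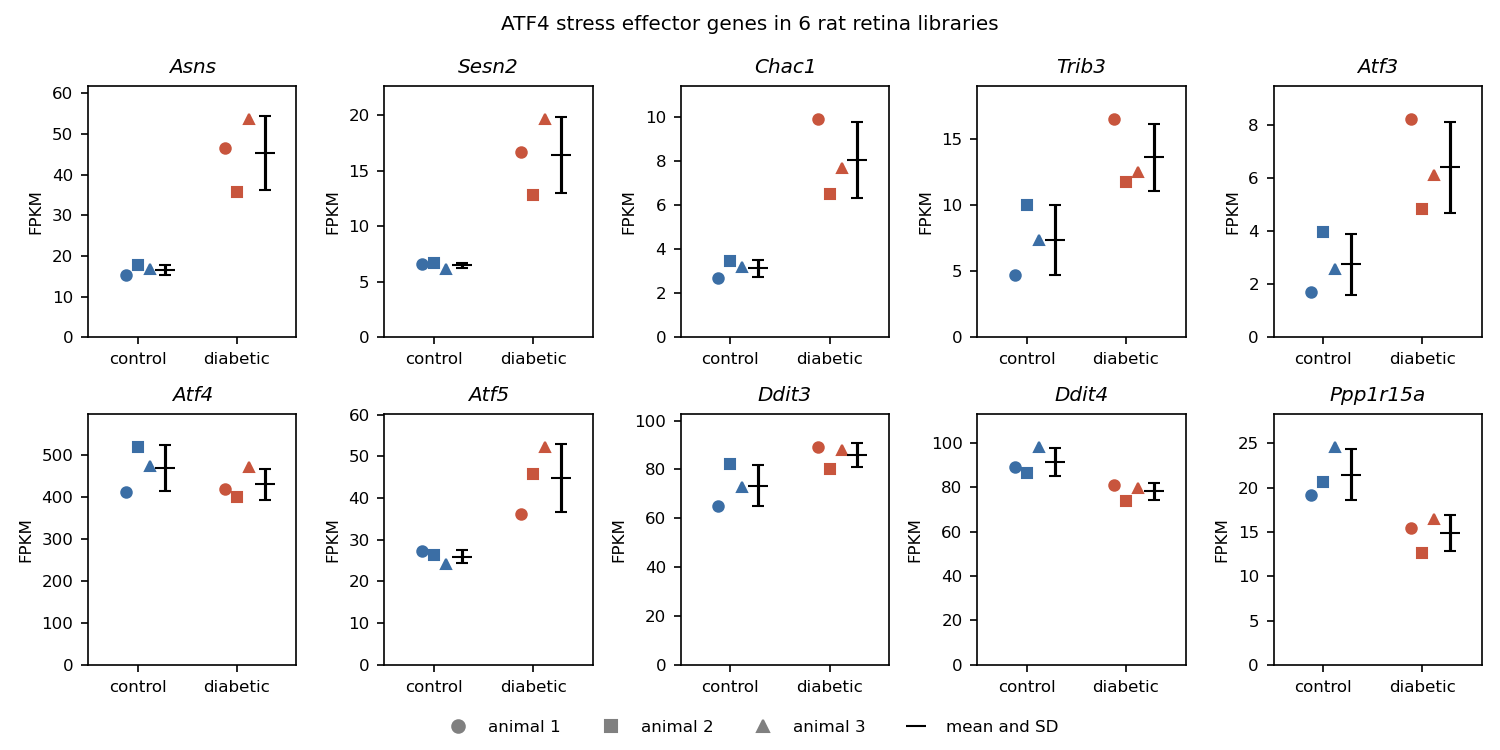
FPKM of each of the 10 genes (y axes, each from 0) in the 3 control (blue) and 3 diabetic (red) libraries, with the symbol giving the animal number within its group and the black bar the mean and SD. Asns, Sesn2, Chac1, Trib3, Atf3 and Atf5 are higher in every diabetic library, Ddit4 and Ppp1r15a lower, and Atf4 and Ddit3 overlap.

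Atf4 itself (ENSRNOG00000017801, chromosome 7 from 121480723 to 121482772 in the deposited table, for which the sources name no genome build) was abundant in both groups. It measured 410.7, 519.1 and 471.7 FPKM in control 1, 2 and 3 and 417.8, 399.7 and 471.1 FPKM in diabetic 1, 2 and 3. Its mean in control retina ranked 98 among 28907 symbols, in the range of highly expressed retinal genes. The diabetic libraries lay within or just below the control range, and the log2 difference was -0.12 with a 95% interval from -0.39 to 0.16. The sign depended on scaling, with 0.02 when FPKM were rescaled to TPM and 0.16 after quantile normalization.

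Effectors that handle amino acids and growth signalling come next. Asns (ENSRNOG00000007546), which makes asparagine from aspartate and glutamine, was at 15.2, 17.7 and 16.8 FPKM in the control libraries and at 46.6, 35.7 and 53.8 FPKM in the diabetic libraries. The lowest diabetic value was 2.02 times the highest control value, the widest gap between groups among the 10 genes. Its log2 difference was 1.41 with a standard error of 0.15 and lay between 1.28 and 1.57 in fits without 1 library. The related gene Asnsd1 was at 17.9 ± 2.93 FPKM in the controls and 14.6 ± 1.18 FPKM in the diabetic group (SD, n = 3), lower without overlap, with a log2 difference of -0.28 (95% interval -0.58 to 0.023).

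Sesn2 (ENSRNOG00000042785, chromosome 5 from 150684133 to 150704117), a leucine sensor that holds back the growth kinase complex mTORC1, was at 6.55, 6.66 and 6.15 FPKM in control and at 16.7, 12.8 and 19.7 FPKM in diabetic libraries. Control values were close together, with a coefficient of variation of 4.09% where counting alone gives 5.82% in the library of fewest fragments. The diabetic libraries varied by 21.0% and were all above the controls, with a log2 difference of 1.26 and a standard error of 0.16. The paralogues Sesn1 and Sesn3 were expressed at higher levels than Sesn2 in control retina, at 27.4 ± 3.86 and 17.8 ± 5.66 FPKM (SD, n = 3). Sesn1 had a log2 difference of -0.05 (95% interval -0.33 to 0.22), and Sesn3, at 24.9 ± 2.97 FPKM in diabetic retina, had 0.51 (-0.02 to 1.05).

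Ddit4 (ENSRNOG00000057078, chromosome 20 from 29509289 to 29511382), also called REDD1, restrains mTORC1 through the TSC complex and responds to hypoxia and glucocorticoids as well as to ATF4. It lay at 89.1, 86.5 and 98.3 FPKM in control and at 80.9, 73.7 and 79.6 FPKM in diabetic libraries. All diabetic values were below all control values, in the opposite direction to Sesn2, but the gap was narrow, and the log2 difference of -0.22 (standard error 0.08) became -0.087 with TPM and -0.084 after quantile normalization.

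Chac1 (ENSRNOG00000014387, chromosome 3 from 111160205 to 111163425), which breaks down glutathione, was low in control retina. The values were 2.69, 3.48 and 3.18 FPKM in control and 9.91, 6.51 and 7.66 FPKM in diabetic libraries. Every diabetic library was at least 1.87 times the highest control, and the log2 difference was 1.22 with a standard error of 0.17. Only 64 to 72 fragments stood behind each control value, so counting error alone is 12.5% in the smallest, near the observed 12.7% variation among controls. The related enzyme gene Chac2 averaged 6.41 ± 1.17 FPKM in the controls against 5.67 ± 0.69 in the diabetic group (SD, n = 3), with overlap.

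Trib3 (ENSRNOG00000007319, chromosome 3 from 147813473 to 147819571), a pseudokinase that binds ATF4 and CHOP and dampens their activity, measured 4.67, 10.001 and 7.34 FPKM in control and 16.5, 11.7 and 12.5 FPKM in diabetic libraries. The groups came close, since diabetic 2 exceeded control 2 by a factor of 1.17. The log2 difference was 0.89 with a standard error of 0.26, and it was 0.62 without control 1 and 1.13 without control 2. Its relatives Trib1 (0.19, 95% interval -0.11 to 0.48) and Trib2 (-0.15, -0.34 to 0.03) had smaller differences whose intervals include 0. Their groups did not overlap, with Trib1 higher and Trib2 lower in every diabetic library.

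Among the transcription factors, the deposited table assigns Atf3, Atf4, Atf5 and Ddit3 to the basic leucine zipper family. Atf3 (ENSRNOG00000003745, chromosome 13 from 109817728 to 109849632), an early stress-induced factor, was at 1.69, 3.95 and 2.57 FPKM in control and at 8.23, 4.83 and 6.13 FPKM in diabetic libraries. Its diabetic values were all higher, but control 2 and diabetic 2 differed by a factor of only 1.22, and variation within control was 41.5%, against 10.9% from counting in the smallest library. The log2 difference of 1.12 (standard error 0.29) was 0.87 without control 1.

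Atf5 (ENSRNOG00000020060, chromosome 1 from 100808241 to 100810522), a factor regulated in translation like ATF4 and tied to mitochondrial stress, was at 27.2, 26.3 and 24.2 FPKM in control and at 36.3, 45.9 and 52.4 FPKM in diabetic libraries. Diabetic libraries were all higher and spread more widely than the controls, with a log2 difference of 0.77 and a standard error of 0.14. Its order among the diabetic libraries was also its own: diabetic 2 was the lowest of the diabetic libraries for the other 9 genes, while for Atf5 it was diabetic 1.

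Ddit3 (ENSRNOG00000006789, chromosome 7 from 70580198 to 70585084) encodes CHOP, a factor linked to cell death under prolonged stress. It was at 65.2, 82.1 and 72.8 FPKM in control and at 89.4, 80.1 and 88.1 FPKM in diabetic libraries. Control 2 exceeded diabetic 2, so the groups overlapped, and the log2 difference was 0.23 with a 95% interval from -0.01 to 0.47, or 0.37 with TPM and 0.37 after quantile normalization. Ddit3 overlaps the methionyl-tRNA synthetase gene Mars by 72 nt on the opposite strand. Mars averaged 58.9 FPKM over all libraries and was higher in every diabetic library. It was at 46.4 ± 2.13 FPKM in control and at 71.3 ± 9.29 FPKM in diabetic libraries (SD, n = 3 each). The labels name no strand marking for the library kit, so reads from this overlap cannot be told apart. Their part in the Ddit3 difference was not tested. None of the other 9 genes overlaps another gene of the table.

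Ppp1r15a (ENSRNOG00000020938, chromosome 1 from 101511901 to 101514974) encodes GADD34, which directs protein phosphatase 1 to eIF2 and so restores translation. Its values were 19.2, 20.6 and 24.7 FPKM in control and 15.5, 12.6 and 16.5 FPKM in diabetic libraries. All diabetic libraries were lower, and the log2 difference was -0.52 with a standard error of 0.14, and -0.39 with TPM. The constitutive paralogue Ppp1r15b was at 15.8 ± 2.76 and 16.7 ± 0.37 FPKM (SD, n = 3), a log2 difference of 0.09 with an interval from -0.22 to 0.41.

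**Figure D2:**
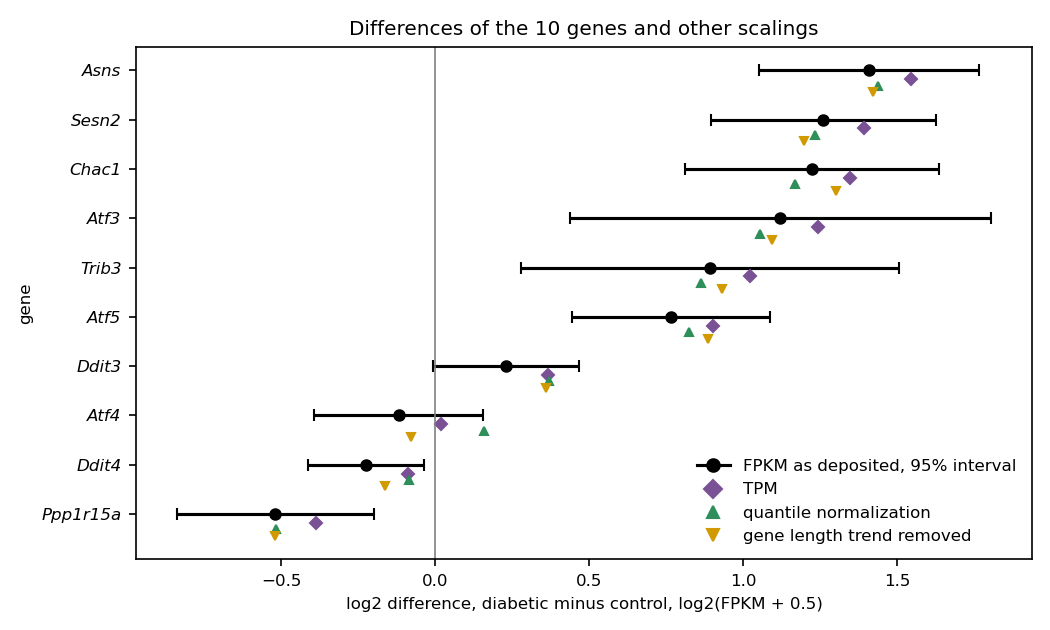
Log2 difference between diabetic and control retina on the log2(FPKM + 0.5) scale (x axis) for each of the 10 genes (y axis), with the black point and bar giving FPKM as deposited and its 95% interval and the coloured symbols giving 3 other scalings without their intervals. The 6 genes from Asns to Atf5 stay well above 0 under each scaling shown, Ddit4 stays below 0, and Atf4 moves from -0.12 to 0.16.

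Setting each gene against Atf4 within a library gives a quantity that a scaling factor per library cannot move. Per 100 FPKM of Atf4, Asns was at 3.70, 3.41 and 3.57 in control and at 11.2, 8.94 and 11.4 in diabetic libraries, 2.95 times as much on average. Chac1 was at 0.656, 0.670 and 0.675 against 2.37, 1.63 and 1.63. Ddit3 was at 15.9, 15.8 and 15.4 against 21.4, 20.0 and 18.7, so its groups, which overlapped in FPKM, did not overlap in this ratio. The ratio of Ddit4 overlapped between groups, and that of Ppp1r15a was 4.62 ± 0.63 in control and 3.45 ± 0.28 in diabetic libraries (SD, n = 3) without overlap. These ratios combine the change of both genes and carry the same choice of genes as the levels. The mean of Atf4 was 467.2 FPKM in control and 429.5 FPKM in diabetic libraries, which raises the diabetic ratios. The share of all genes whose groups do not overlap in such a ratio was not computed.

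**Figure D3:**
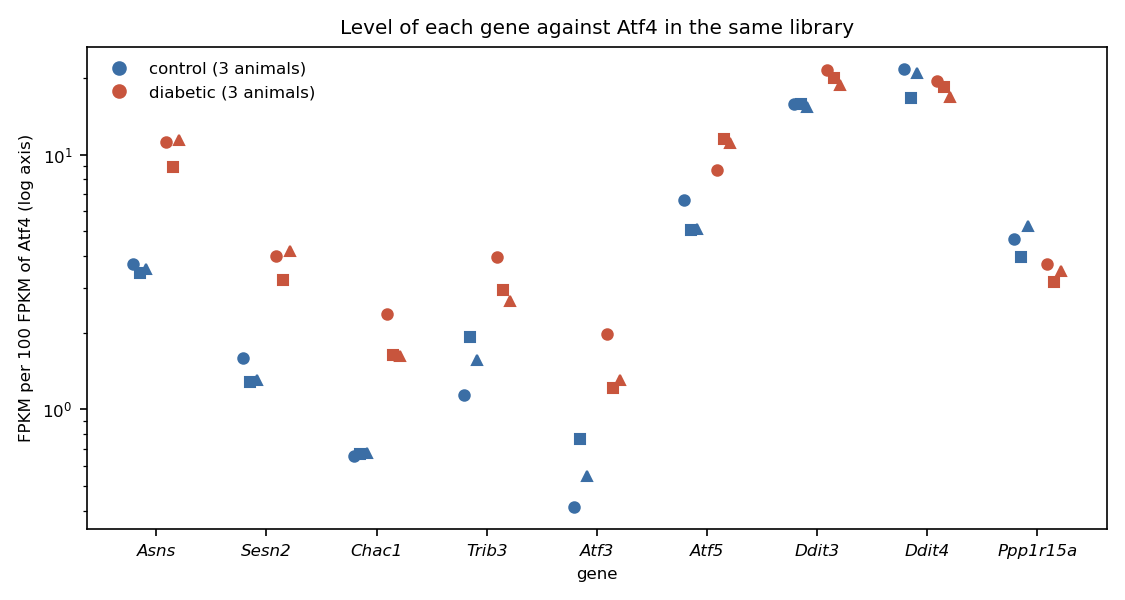
Level of 9 genes per 100 FPKM of Atf4 in the same library (y axis, log scale) in control (blue) and diabetic (red) retina, with circle, square and triangle for animal 1, 2 and 3 of each group. The groups are apart for 8 genes and overlap for Ddit4. The share of all genes whose groups are apart in this ratio was not computed, so nothing is read from the count.

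The order of the libraries within a group differed between genes, with some orders more common than others. Diabetic 2 was the lowest diabetic library for 9 of the 10 genes, against 33.4% of all genes tested. Control 1 was the lowest and control 2 the highest control library for 7 genes each, against 35.3% and 34.5% of all genes. Chac1, Trib3, Atf3 and Ddit3 had the full order control 2, 3, 1 and diabetic 1, 3, 2 from highest to lowest, as did 3.10% of all genes. The cornea marker sum had this order as well, at 10.9, 1.58 and 1.46 FPKM and at 13.6, 4.15 and 1.12 FPKM. These orders concern differences between single libraries, each from its own rat, and are given without a test. Animal, dissection and library preparation cannot be told apart in them, and the part of carried-over tissue was not tested.

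The gene closest to Asns in pattern was a further member of the group, Sesn2, with a root mean square difference of 0.10 between the log2 profiles over the 6 libraries after each was centred on its mean. Among 13441 genes outside the group, the 5 most alike were the cationic amino acid transporter gene Slc7a1 (0.13), the clone-named AABR07028970.2 (0.16), the neutral amino acid transporter gene Slc1a4 (0.22), the matrix protein gene Optc (0.24) and AABR07007758.2 (0.27). Slc7a1 was at 0.730, 0.991 and 1.23 FPKM in control and at 3.73, 2.53 and 4.82 FPKM in diabetic libraries, so it repeats the low diabetic 2 and the high diabetic 3 of Asns. Chac1 was at 0.19, Atf3 at 0.32, Trib3 and Atf5 at 0.39, Ddit3 at 0.60, Atf4 at 0.77, Ddit4 at 0.83 and Ppp1r15a at 0.97 from Asns. Sesn2 and Chac1 were thus nearest to Asns, and the 3 genes with lower diabetic means were farthest. The centred profiles keep the step between the groups, so this order follows the log2 differences known when the genes were chosen. Nothing further is read from it.

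Other ATF4 targets were read from 4 lists of textbook targets that leave out the 10 genes and were drawn up with earlier results of these libraries known. Of the 49 genes tested, 38 were higher and 11 lower in diabetic retina, with a median log2 difference of 0.31 against 0.00 over all genes, and 0 passed over all genes tested in limma. At an unadjusted p below 0.05 there were 25 higher genes, or 51.0%, beside 9.15% of all genes tested, and 2 lower genes, beside 10.7% of all. In the fits that left out 1 library, the 25 became 20 to 25.

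Cytosolic tRNA synthetases, which charge tRNAs with amino acids, were higher in mean in 12 of 12 genes tested, 10 of them at an unadjusted p below 0.05, with a median log2 difference of 0.50. Control and diabetic means were 17.1 ± 0.68 and 30.6 ± 5.06 FPKM for Tars. They were, for Aars, 85.2 ± 1.94 and 130.2 ± 17.0, for Cars 20.6 ± 1.39 and 36.6 ± 6.71, and for Mars 46.4 ± 2.13 and 71.3 ± 9.29 FPKM (SD, n = 3 each). The smallest differences were those of Sars (0.14) and Wars (0.07), named here after their values were seen.

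Amino acid transporters were higher in mean in 9 of 9 genes tested, 4 of them at an unadjusted p below 0.05, with a median log2 difference of 0.24. Slc1a4 measured 3.43 ± 0.25 and 10.1 ± 2.35 FPKM, Slc38a2, a glutamine transporter induced by amino acid shortage, 25.6 ± 1.85 and 47.0 ± 5.74 FPKM, and the glycine transporter gene Slc6a9, also among the amacrine cell markers, 79.9 ± 5.19 and 94.6 ± 4.30 FPKM (SD, n = 3 each). In amino acid synthesis and mitochondrial folate metabolism the genes were split, with 7 higher and 5 lower of 12, of which 5 and 1 had an unadjusted p below 0.05. Mthfd2, a mitochondrial folate enzyme, was at 5.52, 11.03 and 6.62 FPKM in control and at 33.2, 21.8 and 24.9 FPKM in diabetic libraries, the largest difference of the 4 lists at 1.76 on the log2 scale. Pck2 (0.73) and the proline synthesis gene Pycr1 (0.98) were higher in mean. The median of this list was 0.18, and it was -0.0017 where genes averaging under 2 FPKM were left out and 0.088 without diabetic 3.

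The other stress genes under ATF4 had 10 higher and 6 lower means of 16, of which 6 and 1 had an unadjusted p below 0.05, and a median of 0.27. Cebpb, a C/EBP partner of ATF4, was at 2.48, 3.44 and 3.35 FPKM in control and at 6.06, 6.34 and 7.01 FPKM in diabetic libraries. All diabetic values were above all control values, with a log2 difference of 0.97 and a standard error of 0.15. The lipoprotein receptor gene Vldlr (0.57) and Herpud1 (0.57), which serves degradation at the endoplasmic reticulum, were also higher in mean, and Jmjd6 was lower (-0.34).

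**Figure D4:**
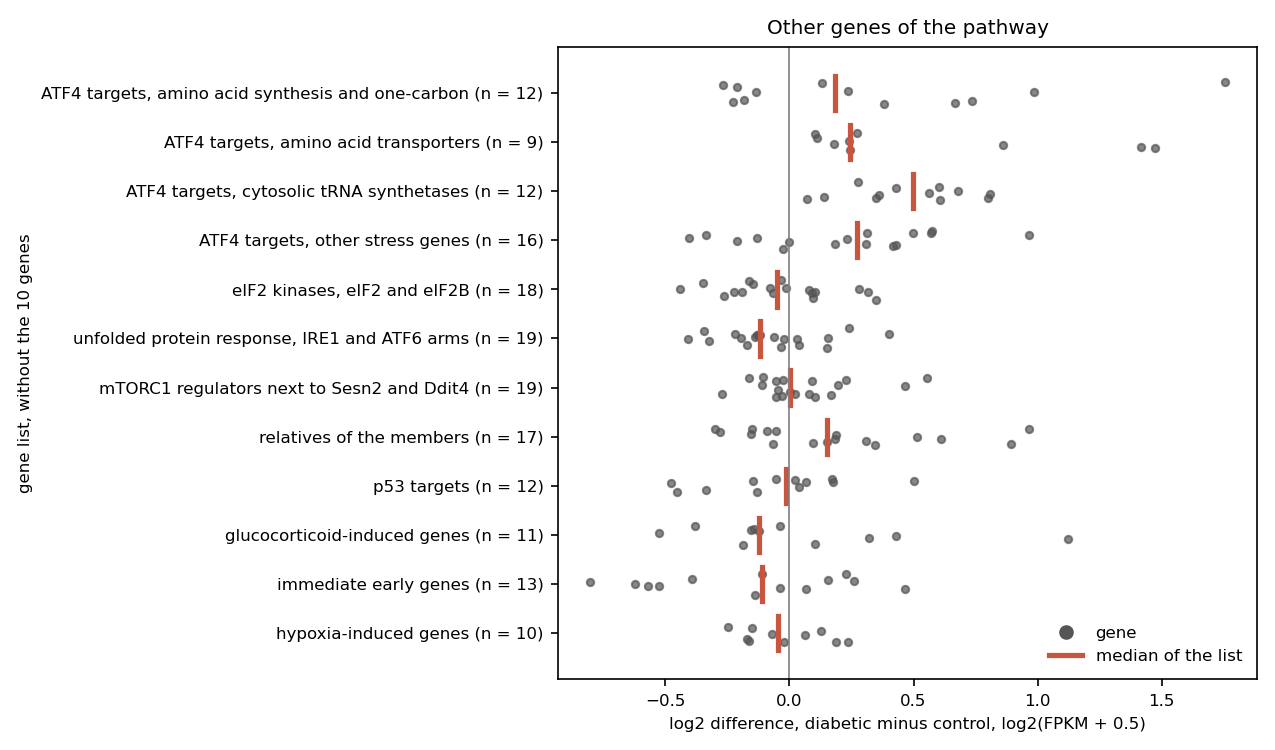
Log2 difference between diabetic and control retina on the log2(FPKM + 0.5) scale (x axis) for the tested genes of 12 lists without the 10 genes (y axis, with the number tested), where each point is 1 gene and the red bar the median of its list. Medians lie between 0.18 and 0.50 in the 4 lists of ATF4 targets and between -0.12 and 0.15 in the other 8. This split does not hold in every setting. Without genes averaging under 2 FPKM the synthesis list was at -0.0017 and the relatives at 0.17, and without diabetic 3 they were at 0.088 and 0.11. The lists were drawn up with earlier results known, and some genes belong to 2 lists.

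Upstream of ATF4, the eIF2 kinases, eIF2 and its exchange factor eIF2B had a median of -0.05 (0.084 with TPM, -0.082 without diabetic 1 and -0.032 without control 3). Of 18 genes 7 were higher and 11 lower in mean, of which 1 and 2 had an unadjusted p below 0.05, near the 9.15% higher and 10.7% lower of all genes. The genes of smallest p are given as values. The kinase gene Eif2ak4 (GCN2), the sensor of uncharged tRNA, was at 6.80 ± 0.41 and 8.58 ± 0.23 FPKM, a log2 difference of 0.32, and Eif2ak2 (PKR) had 0.35. The exchange factor genes Eif2b2 (-0.44) and Eif2b4 (-0.35) were lower in mean. In the IRE1 and ATF6 arms of the unfolded protein response, which run beside the ATF4 arm, 6 genes were higher and 13 lower of 19, of which 2 each had an unadjusted p below 0.05, near the same shares of all genes. The median was -0.12 (0.016 with TPM, 0.033 after quantile normalization and -0.056 without diabetic 1). Their genes of smallest p were Selenok (-0.41), Manf (-0.35), the chaperone gene Canx (0.24) and the sensor gene Ern1 (0.40). Over all genes tested, the median log2 difference rose with gene length, from -0.15 at 421 to 953 nt to 0.17 at 5083 nt or more. Genes of 42 to 420 nt were at 0.01. Selenok (723 nt) and Manf (844 nt) are short, and Eif2ak4 (8976 nt) and Ern1 (6916 nt) are long. The part of gene length in these differences was not tested.

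Regulators of mTORC1 that work beside Sesn2 and Ddit4 had a median of 0.00 (-0.023 without control 1 and 0.028 without diabetic 3). Of 19 genes 10 were higher and 9 lower, of which 3 and 1 had an unadjusted p below 0.05, beside 9.15% and 10.7% of all genes. They were Tsc1 (0.46), the arginine sensor family gene Castor2 (0.55) and Mtor (0.23) on the higher side and the GTPase gene Rraga (-0.27) on the lower side. Mtor (8680 nt) and Rraga (1597 nt) go with the length trend of all genes, and Castor2 (1239 nt) goes against it. The part of gene length was not tested here either. Relatives of the 10 genes had a median of 0.15 (0.047 without control 1), with 3 of 17 higher and 1 lower at an unadjusted p below 0.05, beside the same shares of all genes. These were Cebpb, Atf2 (0.34), Atf7 (0.61) and Atf6b (-0.30). The remaining relatives not yet given were Cebpd (0.89, 95% interval -0.053 to 1.84), Jdp2 (0.31), Cebpg (0.18), Atf6 (0.15), Atf1 (-0.065) and Cebpa (-0.089). No gene of these lists passed over all genes tested, and TPM moved the median of all genes by 0.12 in the higher direction, with 3004 higher and 696 lower genes at an unadjusted p below 0.05 in place of 1498 and 1757, and voom gave 2210 and 1203.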

How the data were processed

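Poly-A RNA of 6 retinas was sequenced, and the submitters' processing notes name HISAT2 2.0.5 as aligner. The authors deposited FPKM with gene length and coordinates, per the file headers. The counting tool, build and annotation are unknown here. FPKM multiplied by gene length gave whole fragments (100% of values within 0.05 of a whole number). Counting errors cover sampling of fragments alone, and p-values the spread between these animals.

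Genes averaging 0.5 FPKM or more entered limma 3.58.1 (R 4.3.3) as log2(FPKM + 0.5). The fit had group as its single term, an intensity trend, a two-sided test and Benjamini-Hochberg adjustment over all genes tested. This scale understates fold changes of low genes. The functions were tested on simulated data. Genes, lists and tests were chosen with earlier results of these data known. The text names the 10 genes, up to 4 genes of smallest p in each list, the 5 nearest to Asns, and marker genes. Relatives of the 10 genes are named whatever their values. Cebpb, Cebpg, Jdp2, Atf6, Ppp1r15b, Sesn1, Dusp1 and Btg2 each belong to 2 lists. The listed symbols Cth, Tnfrsf10b, Bbc3, Ddit4l, Seh1l and Pecam1 had no match. Single-gene values of 1 marker and 1 listed gene are not reported here. No pair of libraries within a group was alike enough to be 1 library (chi-square divided by degrees of freedom was 10.7 or more). Alternatives were other pseudocounts, filters, scalings and limma settings, voom, protein-coding genes, a replicate block and leaving out single libraries. The plots were made in matplotlib 3.10.9.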

Additional observations from a re-analysis of the deposited data

How the results depend on the processing

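The count of genes passing over all genes stayed at 0 under the alternatives, except for 2 with voom and a range of 0 to 4 when 1 library was left out (1 without control 2, 4 without diabetic 1, 1 without diabetic 2). The cause was not tested. The count at an unadjusted p below 0.05 ranged from 2066 without diabetic 2 to 4015 without control 3. The median of the 10 genes was 0.96 with TPM and 0.71 to 0.95 when 1 library was left out. With TPM, Ddit3 was at 0.37 and Ddit4 at -0.087, and the medians were 0.44 for all ATF4 targets, 0.32 for synthesis, 0.38 for transporters, 0.40 for other ATF4 stress genes, 0.084 for eIF2, 0.016 for IRE1 and ATF6, 0.13 for mTORC1, 0.28 for relatives, 0.11 for p53, 0.0083 for glucocorticoid and 0.089 for hypoxia. After quantile normalization Atf4 was at 0.16, Ddit3 at 0.37, Ddit4 at -0.084, transporters at 0.38, IRE1 and ATF6 at 0.033 and hypoxia at 0.0043. With voom the medians were 0.32 for transporters, -0.0026 for eIF2, -0.072 for IRE1 and ATF6 and 0.0022 for hypoxia. With the length trend removed they were 0.26 for all ATF4 targets, 0.20 for transporters, 0.050 for relatives and 0.025 for hypoxia. Without genes averaging under 2 FPKM the synthesis median was -0.0017, and the transporter median was 0.28 with a pseudocount of 0.1. When 1 library was left out, medians ranged from 0.20 to 0.29 for transporters, 0.19 to 0.29 for other ATF4 stress genes, -0.14 to -0.056 for IRE1 and ATF6, 0.047 to 0.19 for relatives, -0.12 to 0.073 for p53, -0.15 to -0.029 for glucocorticoid and -0.092 to 0.047 for hypoxia. TGATGCAA alone was found in 1 promoter, Chac1. With the replicate block 0 genes passed and 2790 had an unadjusted p below 0.05, with 23 higher ATF4 targets in place of 25, and no adjusted call changed. Same-numbered libraries had correlations of their deviations of -0.054, -0.076 and 0.00061, so the numbers were not taken as pairs. Depth limits Chac1, Atf3 and Trib3 most, with 64, 84 and 154 fragments in their smallest libraries.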

Other observations

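Some of the 10 genes also respond to p53, glucocorticoids, hypoxia or acute stimulation, and lists of other genes known for those responses were read in the same way. Of 12 p53 targets tested, 6 were higher and 6 lower in diabetic retina, with a median log2 difference of -0.01 (0.11 with TPM and 0.073 without control 2). The cell cycle inhibitor gene Cdkn1a went from 3.31 ± 0.68 to 4.85 ± 0.71 FPKM, while Gadd45a (-0.45), Ccng1 (-0.48) and the cell death gene Bax (-0.34) were lower in mean. Of 11 glucocorticoid-induced genes, 4 were higher and 7 lower, with a median of -0.12 (0.0083 with TPM and -0.029 without control 2). At an unadjusted p below 0.05 in limma, 2 of them were higher and 2 lower, beside 9.15% and 10.7% of all genes. The metallothionein gene Mt2A went from 20.3 ± 8.16 to 43.2 ± 10.7 FPKM (SD, n = 3 each), and Sgk1 (-0.38) and Dusp1 (-0.53) were lower. Of 13 immediate early genes, which are induced within minutes of stimulation, 5 were higher and 8 lower, with a median of -0.11 (0.022 with TPM, 0.052 without diabetic 1, -0.26 without diabetic 3 and -0.25 without genes averaging under 2 FPKM). Dusp1 and Btg2 are counted in this list as well as in the glucocorticoid and p53 lists. Ier2 (-0.57) and Nr4a1 (-0.62) did not overlap between groups, and Egr1 (-0.80) did. Of 10 hypoxia-induced genes, 4 were higher and 6 lower, with a median of -0.05 (0.089 with TPM and 0.047 without diabetic 3). No gene of these 4 lists passed over all genes tested in limma, where the smallest adjusted p of any gene was 0.127. The basic leucine zipper genes of the table other than Atf3, Atf4, Atf5 and Ddit3 had 23 higher and 16 lower means of 39 tested, with a median of 0.14.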
